A study of Mus musculus with 48 samples.

Results

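Whole skin of the mouse chin was compared between mid and early anagen, the growth phase of the hair follicle, across all genes of a table of expression values. The comparison held 4 of the 43 libraries of that table, 2 from early and 2 from mid anagen, picked by their stage and domain labels. Of 46983 genes listed, 16697 had at least 0.5 FPKM in at least 2 of these libraries and were tested. The mice were of the strain C57BL/6 with no treatment or allele named, and the labels give neither an age nor the number of mice behind a library. The study had profiled chin, ventral and dorsal skin at 6 stages of the cycle, namely competent telogen, early, mid and late anagen, catagen and refractory telogen, from total RNA with SMART-seq2, a protocol that makes full-length cDNA from little RNA. Ventral and dorsal skin at the same stages are used here only to show where the chin differed. Values are FPKM, fragments relative to transcript length and to the mapped fragments of the library, which can be compared between genes because they are per length.

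The hair follicle rebuilds its lower part in each cycle. In anagen, epithelial cells of the matrix divide around the dermal papilla, a cluster of fibroblasts that signals to them, and then leave the cycle to form the concentric layers of the hair. The shaft is packed with hair keratins that are cross-linked through keratin-associated proteins, and it grows inside the inner root sheath and the companion layer. WNT and hedgehog ligands promote this growth, BMP signals hold it back in the resting follicle and later serve differentiation of the shaft, and FGF ligands act in both directions.

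Each group had 2 libraries, and those of mid anagen lay apart from each other. Over the genes tested, the log2 values of both early anagen libraries correlated at 0.977 and those of both mid anagen libraries at 0.950, while the correlations of an early with a mid anagen library ran from 0.938 to 0.958. The second mid anagen library was thus closer to both early ones than to its replicate. Their estimated depth was 9574920 and 6693569 fragments against 13028603 and 12976593 in early anagen, read from the smallest steps of low values. Transcripts of the mitochondrial genome took 10.3% and 9.25% of the summed FPKM in early anagen and 3.41% and 8.23% in mid anagen. The median SD of a gene within mid anagen was 0.200 on the log2 scale, against 0.0641 to 0.243 over all 18 groups of the table. The skin keratins Krt14 and Krt5 showed that all of these libraries contained epithelium, with at least 1675 and 669 FPKM. The chin libraries labelled competent telogen already expressed Krt71, a keratin of the inner root sheath, at 4336 and 4426 FPKM, against 4299 and 4963 FPKM in early anagen, whereas Krtap19-2 of the hair shaft averaged 10.4 FPKM in them and 164 FPKM in early anagen.

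Of the 16697 genes, 801 (4.8%) were higher and 3307 (19.8%) lower in mid anagen (limma fitted on all 43 libraries, Benjamini-Hochberg adjusted p under 0.05, two-sided). This split depended on the scale, because the median log2 fold change of all genes was -0.20 on the values as deposited. Changes are therefore also read relative to this median. Scaling to the total of genes outside the hair shaft lists and the mitochondrial genome left the median at -0.2. It gave 755 genes higher and 2851 lower, and the cause of the shift was not tested. After median-of-ratios scaling, which brings the median to -0.02, 1569 genes (9.51%) were higher and 1064 (6.45%) lower. With array weights in addition, which give less weight to groups of libraries that scatter, 574 (3.48%) were higher and 163 (0.988%) lower. All 801 higher genes were also higher after median-of-ratios scaling, and 523 of them with weights as well. Of the 3307 lower genes, 1064 and 163 were also lower under these settings. Without the first mid anagen library 531 genes were higher, and without the first or second early anagen library 1712 and 1972 were lower. Counts for gene groups are given below as deposited first, then after scaling with weights. They are to be read against these shares of all genes. Genes were chosen for description by a rule on size and list membership.

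The keratin-associated protein genes formed the largest group that rose, and their products form the matrix between the keratin filaments of the hair shaft. Of 56 genes tested, 51 were higher in mid anagen and 0 lower, with a median log2 fold change of 2.64, and 50 were higher after scaling with weights. The family took 2.13% and 2.28% of the summed FPKM in the early anagen libraries and 15.7% and 12.9% in the mid anagen ones. Both mid anagen libraries were thus far above both early ones. In late anagen of the chin the share was 13.2% and 13.1%, in catagen 8.12% to 8.34%, and in competent telogen 0.722% and 0.696%. Leaving out any single library of the comparison kept between 48 and 51 genes higher, and a fit on the 4 libraries alone left 40. That fit, whose spread rests on these libraries, left 2 type I and 3 type II hair keratins, 6 cornified envelope genes and 1 inner root sheath gene higher, 2 collagen genes and 1 immediate early gene lower, and 0 genes of the cell cycle, WNT, BMP, hedgehog, FGF and dermal papilla lists.

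**Figure D1:**
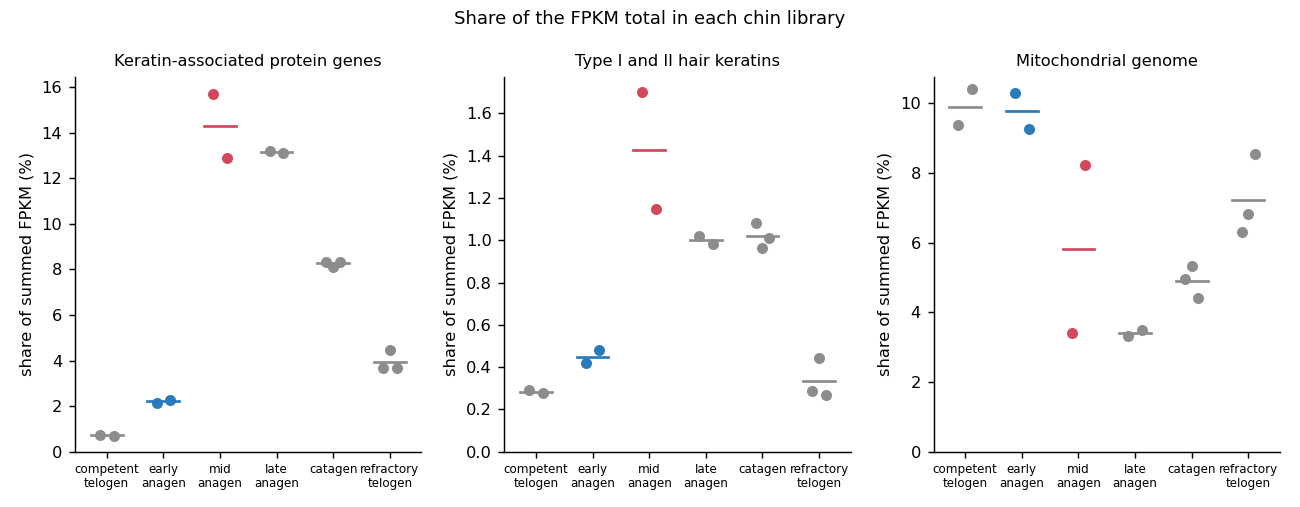
Share of the summed FPKM (%) taken by keratin-associated protein genes, by type I and II hair keratins and by the mitochondrial genome in each chin library. Points are libraries, bars are means, and early and mid anagen are coloured blue and red. The keratin-associated protein share was 2.13% and 2.28% in early and 15.7% and 12.9% in mid anagen, and the mitochondrial share of the mid anagen libraries was 3.41% and 8.23%.

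By subfamily, the glycine- and tyrosine-rich genes of the Krtap19 group moved most. All 7 of them were higher, with log2 fold changes from 3.61 to 4.74. Krtap19-2 (ENSMUSG00000057650.2) stood at 139 and 190 FPKM in early anagen and at 5286 and 3613 FPKM in mid anagen, a log2 fold change of 4.74 ± 0.20 (SE, adjusted p = 1.02e-16). Krtap6-3 (ENSMUSG00000057855.2) was at 26.2 and 44.2 FPKM in early and 545 and 528 FPKM in mid anagen, a log2 fold change of 3.94 ± 0.34 (adjusted p = 7.7e-10). The early and mid anagen libraries did not overlap for either gene. Krtap19-3 was at 582 and 741 FPKM in early and at 12324 and 9076 FPKM in mid anagen, where only Krtap7-1 and Krtap22-2, picked after their values were seen, had a higher mean within the family. By location, the median log2 fold change was 3.33 for the 24 genes tested on chromosome 16 and 2.39 for the 23 on chromosome 11, and 23 genes were higher at each. It was 1.08 for the 5 genes on chromosome 7, all Krtap5, with 3 higher, and 1.42 for the 2 on chromosome 10, both higher. The 2 Krtap28 genes on chromosome 1 were not past the threshold, and neither were Krtap5-2, Krtap5-3 and Krtap24-1, which was at 106 and 125 FPKM in early and 168 and 98.7 FPKM in mid anagen. Many of these genes are near-identical copies between which fragments may be split, so that values of single members are less certain than that of the family.

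Promoters are shown for 4 genes, a keratin-associated protein gene, a hair keratin, a gene of cell division and a clock gene, as examples of the groups described here. They are the windows from 250 bases before to 50 bases after the start in RefSeq on GRCm38.p6, on the strand of the gene and 5′ to 3′. The first 2 belong to hair shaft genes that rose. Capitals mark TATAAA, a form of the TATA box, and CTTTGAA, a core of LEF and TCF sites, on either strand.
Krtap6-3, chr16:89083774-89084073, plus strand: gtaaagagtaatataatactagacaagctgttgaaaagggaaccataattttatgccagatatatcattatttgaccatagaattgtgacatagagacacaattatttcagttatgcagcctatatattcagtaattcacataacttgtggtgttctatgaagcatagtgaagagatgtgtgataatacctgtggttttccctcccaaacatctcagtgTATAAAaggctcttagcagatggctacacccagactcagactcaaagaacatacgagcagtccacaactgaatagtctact
Krt34, chr11:100041505-100041804, minus strand: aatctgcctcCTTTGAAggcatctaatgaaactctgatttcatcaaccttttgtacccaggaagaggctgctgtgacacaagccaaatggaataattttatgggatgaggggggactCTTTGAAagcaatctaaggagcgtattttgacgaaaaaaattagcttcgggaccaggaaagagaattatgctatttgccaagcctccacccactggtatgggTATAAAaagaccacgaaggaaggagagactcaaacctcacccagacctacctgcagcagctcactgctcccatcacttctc
Both windows hold TATAAA with its first base 31 bases before the start. That of Krt34 holds CTTTGAA as well, 240 and 133 bases before it. Of 27025 genes with a window, 15.7% hold TATAAA in it and 5.93% CTTTGAA, counted on both strands. Among keratin-associated protein genes 42 of 51 with a window (82.4%) hold TATAAA and 17.6% CTTTGAA, and among type I hair keratins 4 of 5 hold each. Of 2 type II hair keratins with a window 1 holds TATAAA and 0 hold CTTTGAA. The windows of Krtap19-1, Krtap19-2 and Krtap19-3, of the subfamily that moved most, hold no exact TATAAA. Each holds TATATAAG, a close variant that these counts leave out, so they do not show that a TATA box is absent. A match is a description of the letters and not a binding site.

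Hair keratins, the filament proteins of the shaft, rose in part. Of 7 type I genes tested 5 were higher and 0 lower, with a median log2 fold change of 1.51, and of 5 type II genes 4 were higher and 0 lower, with a median of 2.76. The counts after scaling with weights were also 5 and 4. Krt34 (ENSMUSG00000043485.2), on chromosome 11 from 100037347 to 100041554, rose from 159 and 153 FPKM to 1005 and 998 FPKM, a log2 fold change of 2.68 ± 0.12 (adjusted p = 8.64e-16). Krt84, the type II gene with the largest change, rose from 3.73 and 2.73 FPKM to 46.3 and 38.6 FPKM (3.36 ± 0.20). In both cases replicates lay close together and the stages far apart. Krt33b, Krt33a and Krt31 had log2 fold changes of 2.45, 2.11 and 1.51, and Krt86, Krt81 and Krt83 of 3.04, 2.76 and 1.53. Krt36 rose by 0.45 (adjusted p = 0.0228), and without a single library between 4 and 5 type I genes passed.

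The hair keratins that were not past the threshold were Krt35, Krt32 and Krt82, keratins of the lower shaft and of its cuticle. Krt35 stood at 818 and 1070 FPKM in early and 1069 and 657 FPKM in mid anagen, and the stages overlapped (-0.16 ± 0.21, adjusted p = 0.618). The libraries of Krt32, at 304 and 306 FPKM in early and 386 and 262 FPKM in mid anagen, overlapped as well (0.06 ± 0.16, adjusted p = 0.817), as did those of Krt82 (-0.08 ± 0.18, adjusted p = 0.794). All 3 genes were thus expressed in early anagen at levels like those of mid anagen, within the spread of these libraries.

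**Figure D2:**
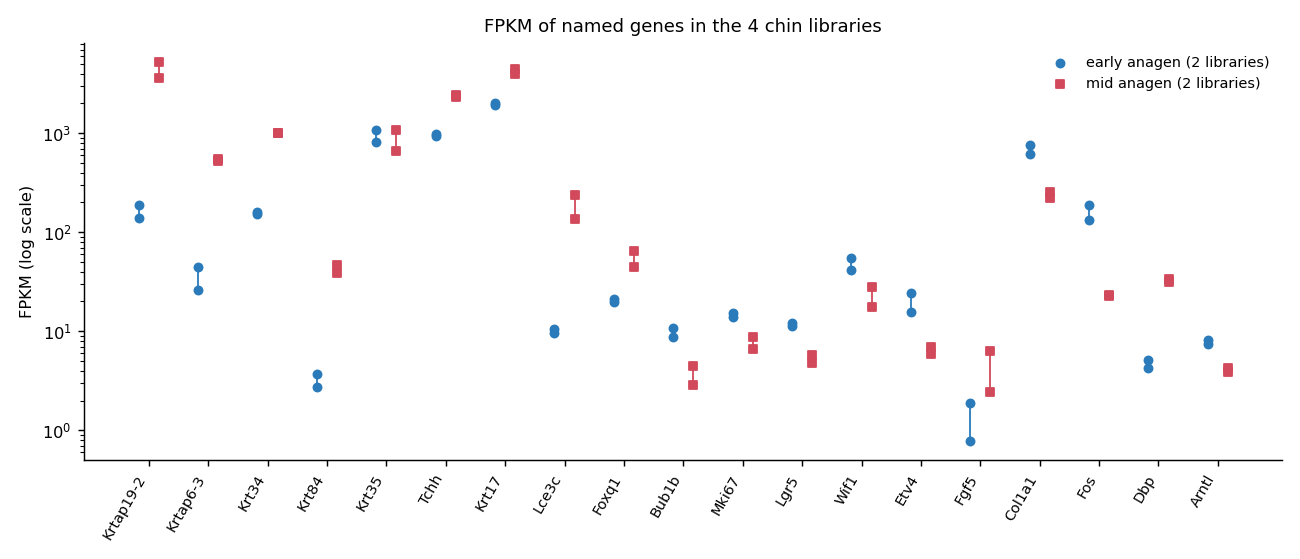
FPKM of named genes in the 4 chin libraries, on a log axis. Points are libraries, blue circles for early and red squares for mid anagen, and lines join libraries of a stage. The stages overlap for Krt35 and are separate for the other genes, with Krtap19-2 at 139 and 190 FPKM in early and 5286 and 3613 FPKM in mid anagen.

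The inner root sheath, the sleeve that guides the growing shaft, showed smaller increases. Of 15 genes tested 10 were higher and 1 lower, with a median log2 fold change of 0.66, and 9 were higher and 0 lower after scaling with weights. Without the first early anagen library 6 were higher, and without any other single library 7 or 8. Tchh, which encodes trichohyalin, the protein that hardens the sheath, rose from 994 and 934 FPKM to 2298 and 2407 FPKM (1.29 ± 0.19, adjusted p = 9.73e-06). Tgm3, the transglutaminase that cross-links it, rose from 3.76 and 2.36 FPKM to 9.28 and 9.11 FPKM (1.35 ± 0.27). Both genes had separate stages and close replicates in mid anagen. The most abundant sheath keratin, Krt71, was 0.57 higher on the log2 scale, Krt72 1.18 and Krt27 0.66. Krt74 was the member that was lower, at 5.17 and 4.45 FPKM in early and 3.33 and 1.81 FPKM in mid anagen (-0.73 ± 0.27, adjusted p = 0.0482). All 4 keratins of the companion layer that were tested, Krt75, Krt6a, Krt16 and Krt17, were higher, also after scaling with weights. Krt17 rose from 1925 and 2010 FPKM to 4461 and 3957 FPKM (1.09 ± 0.11), and Krt16 from 9.32 and 8.51 to 29.7 and 33.1 FPKM (1.71 ± 0.21). Krt16 and Krt17 also mark stressed epidermis.

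Genes of the cornified envelope, the cross-linked shell of dead keratinocytes, went both ways. Of 30 tested 12 were higher and 4 lower, and 11 and 1 after scaling with weights, with a median log2 fold change of 0.09. The lower ones numbered 1 without the first early or first mid and 9 without the second mid anagen library. Small proline-rich and late cornified envelope genes made up most of the higher ones, though Sprr2a2, outside the list, fell from 65.5 and 35.2 FPKM to 15.2 and 19.2 FPKM (-1.44 ± 0.22). Lce3c rose from 9.71 and 10.6 FPKM to 241 and 135 FPKM (4.02 ± 0.19, adjusted p = 1.57e-15), and Sprr2h from 8.73 and 7.80 FPKM to 127 and 113 FPKM (3.71 ± 0.18). Sprr1b and Lce3d each had a log2 fold change of 4.09, while Ivl, which encodes involucrin, had 1.43 and Sprr1a 1.19. Lce3a was listed at 0 in both early anagen libraries and at 8.99 and 8.29 FPKM in mid anagen. The lower ones were epidermal genes, namely Hrnr (-1.46), Flg2 (-0.96), Flg (-0.83), all of the S100 fused-type family that includes filaggrin, and the protease gene Klk5 (-0.72). Of 9 interfollicular keratins 3 were lower and 0 higher, namely Krt1, Krt10 and Krt77, and only Krt1 with weights and scaling. They numbered 1 without the first early or first mid, 5 without the second early and 6 without the second mid anagen library. Krt1, the partner of Krt10 above the basal layer, was at 238 and 131 FPKM in early and 46.0 and 107 FPKM in mid anagen (-1.32 ± 0.25, adjusted p = 0.000431). For Flg, Krt10 and Krt77 only the first mid anagen library was low, and the second overlapped early anagen, with Krt10 at 831, 648, 278 and 649 FPKM in the order of the libraries. In whole skin, fewer cells of a type and less RNA per cell cannot be told apart, for these and all other groups.

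**Figure D3:**
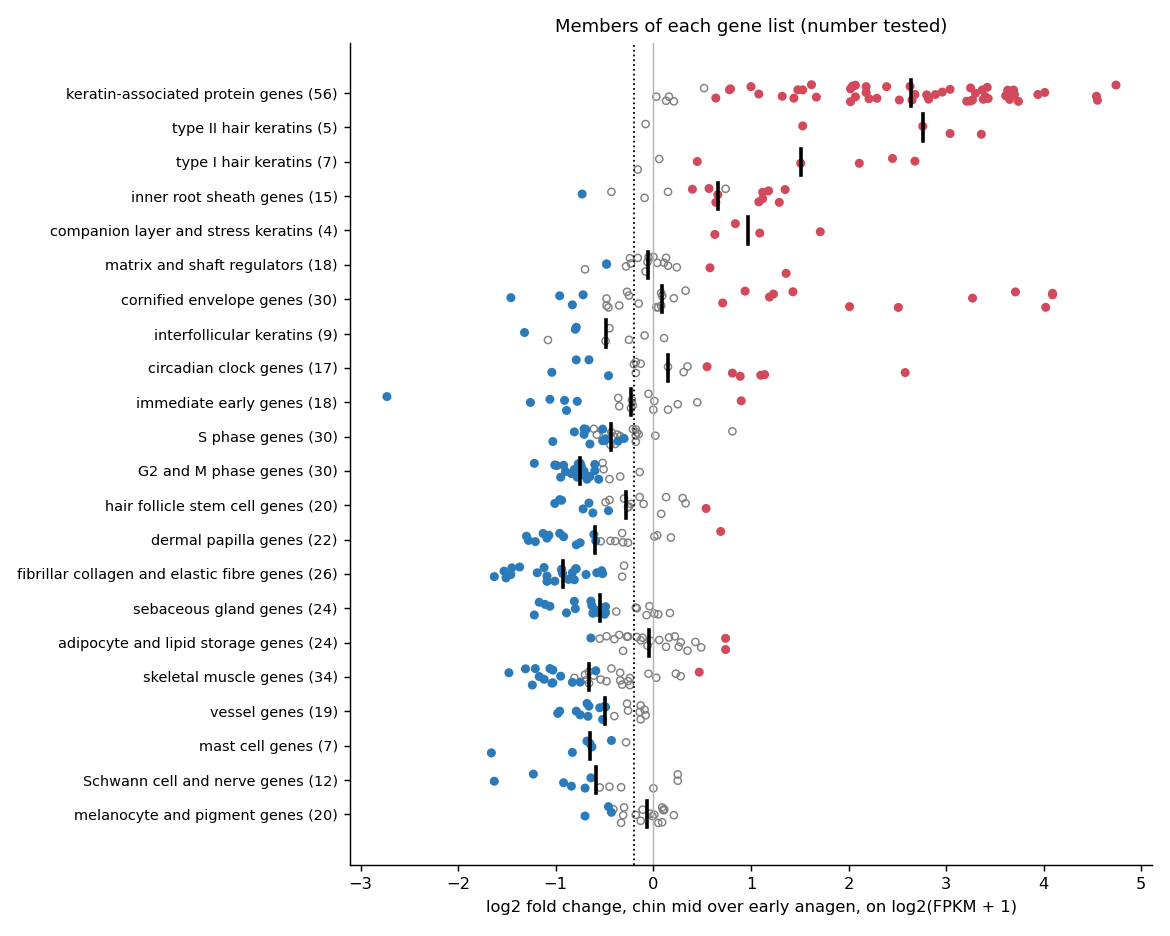
Log2 fold change of mid over early anagen, on log2(FPKM + 1), for each member of a gene list that was tested, with the number tested in parentheses. Red and blue points are members past the threshold, open points are the others, black bars are list medians and the dotted line is the median of all genes (-0.20). Type II hair keratins and keratin-associated protein genes lie highest with medians of 2.76 and 2.64, and fibrillar collagen genes have a median of -0.93.

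Of 18 regulators of the matrix and shaft tested 2 were higher and 1 lower, against 4.8% and 19.8% of all genes. Their median log2 fold change was -0.06. After median-of-ratios scaling 5 were higher and 0 lower, against 9.51% and 6.45% of all genes. Foxq1, a forkhead factor of the shaft medulla, rose from 21.4 and 19.6 FPKM to 64.8 and 45.1 FPKM (1.36 ± 0.18, adjusted p = 2.81e-06). Foxn1, the gene mutated in nude mice, which drives hair keratin expression, rose from 20.4 and 21.3 FPKM to 36.3 and 27.4 FPKM (0.58 ± 0.14). Both were also higher after scaling with weights. Hoxc13 and Msx2, factors of the differentiating shaft, had log2 fold changes of -0.08 and 0.15, and Lef1, a mediator of WNT signals in the matrix, of -0.48 ± 0.23 (adjusted p = 0.133). None of these 3 was past the threshold. Bcl11b was lower (-0.48 ± 0.14, adjusted p = 0.0161), though not after median-of-ratios scaling (adjusted p = 0.2).

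Genes of the dividing cell were lower in mid anagen. Of 30 genes of the G2 and M phases 25 were lower and 0 higher, with a median log2 fold change of -0.75, and of 30 genes of S phase 13 were lower and 0 higher, with a median of -0.43. Relative to the median of all genes the decrease was smaller, with 17 and 7 genes lower after median-of-ratios scaling and 5 and 1 with weights. Mki67 (ENSMUSG00000031004.7), the standard marker of cycling cells, fell from 13.9 and 15.2 FPKM to 8.76 and 6.69 FPKM (-0.84 ± 0.09, adjusted p = 1.18e-07). Bub1b, a kinase of the spindle checkpoint, fell from 8.76 and 10.7 FPKM to 4.45 and 2.84 FPKM (-1.22 ± 0.17), and Kif20a, a motor of cell division, from 7.48 and 8.63 to 4.88 and 2.44 FPKM (-1.01 ± 0.16). For these 3 genes each mid anagen library was below each early one, and all were lower also after scaling with weights. In S phase, Tk1, a thymidine kinase, fell from 65.2 and 79.5 FPKM to 43.02 and 28.2 FPKM (-1.03 ± 0.15). Without the second early or the second mid anagen library 16 and 15 genes of the G2 and M phases and 6 and 7 of S phase were lower.

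The promoter of Bub1b is shown because its 2 marked motifs recur in the G2 and M group. Capitals mark CCAAT, written as ATTGG where it lies on the other strand, and TTTGAA, the core of the cell cycle homology region, which is also part of CTTTGAA.
Bub1b, chr2:118597961-118598260, plus strand: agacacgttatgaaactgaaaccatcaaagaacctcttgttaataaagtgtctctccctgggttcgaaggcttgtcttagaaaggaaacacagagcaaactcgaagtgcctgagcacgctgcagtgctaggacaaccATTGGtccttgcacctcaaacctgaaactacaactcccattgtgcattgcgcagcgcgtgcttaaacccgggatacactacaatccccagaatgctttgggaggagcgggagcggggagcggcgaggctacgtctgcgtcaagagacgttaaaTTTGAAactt
Here CCAAT lies on the minus strand 113 bases before the start and TTTGAA 40 bases after it. Of the G2 and M genes with a window, 19 of 25 (76.0%) hold CCAAT and 19 of 25 TTTGAA, against 41.1% and 20.2% of all genes.

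Genes of WNT signalling are read against the 19.8% of all genes that were lower, a share that the ligands did not exceed. Of 12 ligands tested 2 were lower, Wnt3a (6.36 and 5.47 FPKM to 3.55 and 2.86 FPKM, -0.72 ± 0.17) and Wnt5a (35.7 and 34.1 FPKM to 23.4 and 20.8 FPKM, -0.64 ± 0.18), and 0 were higher. With weights and scaling 0 passed, and the median of the ligands was 0.02. Of 24 R-spondins and receptors 8 were lower and 0 higher, and 5 and 3 were lower without the first and second early anagen library. Lgr5, the R-spondin receptor of the hair germ and outer root sheath, fell from 12.0 and 11.3 FPKM to 4.81 and 5.76 FPKM (-1.01 ± 0.12, adjusted p = 2.58e-07), and was the only member of this list past the threshold with weights and scaling. Rspo3 fell by 0.92 and Lgr6 by 0.66 on the log2 scale.

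Among 13 WNT antagonists 7 were lower and 0 higher, 4 were lower without the first early anagen library, and with weights and scaling 1 was lower, Wif1, and 1 higher, Sfrp1. Wif1, a secreted inhibitor made in the dermal papilla, fell from 41.5 and 55.4 FPKM to 28.2 and 17.6 FPKM (-1.07 ± 0.15, adjusted p = 6.28e-06). Sostdc1, which binds both BMP and WNT components, fell from 151 and 132 FPKM to 66.6 and 111 FPKM (-0.71 ± 0.13). Sfrp1 stood at 29.0 and 32.5 FPKM in early and 35.6 and 33.8 FPKM in mid anagen, which was past the threshold only relative to the other genes (0.39, adjusted p = 0.000296 after median-of-ratios scaling, 0.17 and 0.11 as deposited). Of 12 WNT target genes 5 were lower and 0 higher, and 3 were lower without the second early anagen library, with Apcdd1, a WNT-induced inhibitor, at -0.90 and Ccnd1, which encodes cyclin D1, at -0.82. Apcdd1 and Ccnd1 also passed with weights and scaling, whereas Axin2 was not past the threshold.

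Counts of BMP genes are read against 4.8% of all genes higher and 19.8% lower. After median-of-ratios scaling, with 9.51% and 6.45%, 3 of 9 ligands were higher and 1 lower. Of 8 genes that respond to BMP 3 were then higher and 0 lower, and of 14 antagonists 1 higher and 2 lower. Of 9 receptors and Smads 0 passed at that scale. Of 9 BMP and GDF ligands tested Gdf10 was higher, from 5.05 and 3.96 FPKM to 6.21 and 9.39 FPKM (0.66 ± 0.19, adjusted p = 0.0111), and Bmp4 was lower, from 27.9 and 30.0 FPKM to 21.8 and 16.2 FPKM (-0.60 ± 0.14, adjusted p = 0.00224). Neither passed with weights and scaling, and the median of the ligands was 0.01. Bmp2, a ligand of the differentiating shaft, was at 10.5 and 10.7 FPKM in early and 13.0 and 12.0 FPKM in mid anagen, past the threshold only after median-of-ratios scaling (0.43, adjusted p = 0.00753). Of 14 BMP antagonists 4 were lower and 0 higher, and 2 were lower without the second early anagen library, namely Fst, which encodes follistatin (-0.64), Sostdc1, Fstl1 (-0.48) and Htra1 (-0.44). Of 8 genes that respond to BMP, Smad7, an inhibitory Smad, was higher (8.00 and 8.13 FPKM to 11.8 and 11.4 FPKM, 0.47 ± 0.15) and Id3 lower (-0.59 ± 0.19). Of 9 receptors and Smads Smad5 was lower (-0.52). With weights and scaling 0 genes of any of these BMP lists passed.

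**Figure D4:**
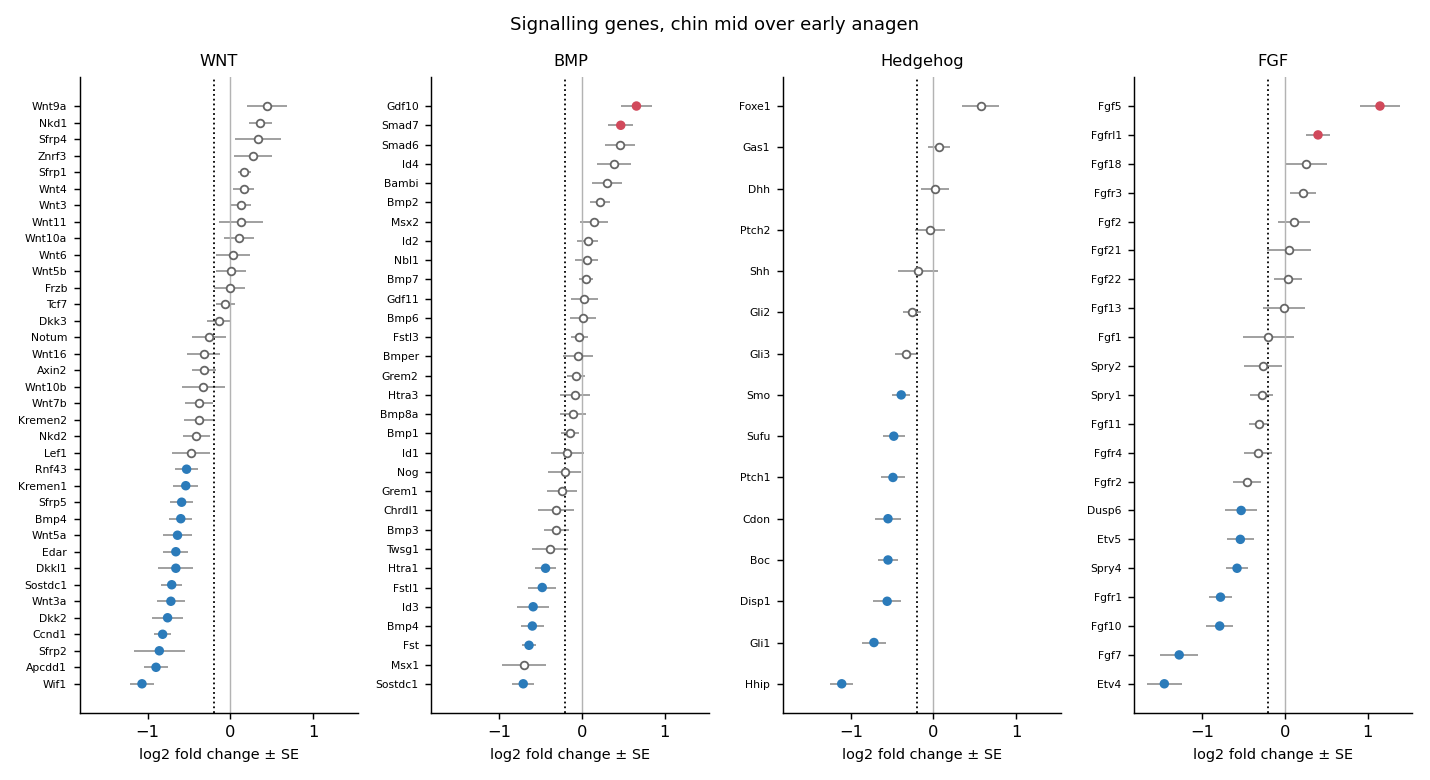
Log2 fold change ± SE of mid over early anagen for the ligands, antagonists and targets of the WNT, BMP, hedgehog and FGF pathways that were tested, each in a panel of its own. Red and blue points are past the threshold, open points are not, and the dotted line is the median of all genes (-0.20). Fgf5 lies highest in its panel with 1.15, and Etv4, Hhip and Wif1 lie lowest in theirs with -1.46, -1.11 and -1.07.

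In the hedgehog pathway 8 of 15 genes tested were lower and 0 higher, 4 lower and 1 higher after median-of-ratios scaling, and 1 lower with weights as well. Without the first or the second early anagen library 5 were lower. Hhip, which binds the ligand and is induced by it, fell from 4.38 and 5.38 FPKM to 1.75 and 1.67 FPKM (-1.11 ± 0.14, adjusted p = 1.07e-06), and Gli1, the target read most often as output of the pathway, from 3.10 and 4.19 FPKM to 2.02 and 1.61 FPKM (-0.72 ± 0.14). Stages were separate for both. The ligand gene Shh was at 3.60 and 6.58 FPKM in early and 5.57 and 3.07 FPKM in mid anagen, and its stages overlapped (-0.19, adjusted p = 0.604).

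Of 21 FGF genes 2 were higher and 7 lower, 0 were higher without the first early and 1 without the second mid anagen library, and 4 were lower without the second early anagen library. Fgf5, whose product ends anagen, was at 0.780 and 1.88 FPKM in early and 6.37 and 2.42 FPKM in mid anagen (1.15 ± 0.24, adjusted p = 0.00121). It was higher in both mid anagen libraries, but the call was lost without the first early (0.80) or the first mid anagen library (0.60). Etv4, a transcription factor induced by FGF signals, fell from 15.8 and 24.2 FPKM to 7.0 and 5.96 FPKM (-1.46 ± 0.21, adjusted p = 9.38e-06). Fgf7 and Fgf10, ligands from the dermal papilla, fell by 1.28 and 0.79, and the receptor gene Fgfr1 by 0.78. Of the list, Fgf5 and Etv4 also passed with weights and scaling.

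Other signalling families are read against 4.8% of all genes higher and 19.8% lower. Of 14 TGF-beta and activin genes 1 was higher, Tmeff1 (0.45), and 5 lower, among them Tgfbr2 (-0.70). Of 17 Notch genes 1 was higher, Nrarp, a feedback inhibitor (0.64), and 7 lower, among them Hey1 (-0.75). Of 20 EGF and IGF genes 0 were higher and 6 lower, with Igfbp2 at 43.9 and 41.6 FPKM in early and 19.2 and 19.95 FPKM in mid anagen (-1.09 ± 0.17). Without the first early anagen library 1 TGF-beta and 2 Notch genes were lower, and 0 of either list were higher. With weights and scaling 0 genes of the TGF-beta and Notch lists passed, and 2 EGF and IGF genes did, Igfbp2 and Igfbp5.

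Dermal papilla genes were more often lower than higher. Of 22 tested 12 were lower and 1 higher, with a median log2 fold change of -0.60, and the counts were the same after median-of-ratios scaling, while 4 were lower with weights. Enpp2, the autotaxin gene, fell from 23.8 and 28.3 FPKM to 13.3 and 9.62 FPKM (-1.13 ± 0.20), and Crabp1 from 34.7 and 36.5 FPKM to 16.5 and 15.96 FPKM (-1.09 ± 0.17). Trps1 fell by 0.96 and Sox18 by 1.30. Corin, a protease of the papilla, was the member that rose, from 0.170 and 0.300 FPKM to 1.02 and 0.960 FPKM (0.69 ± 0.14, adjusted p = 0.000709), at a level near the filter. Among 20 genes of hair follicle stem cells 1 was higher and 7 lower. Sox9 rose from 84.1 and 82.2 FPKM to 117 and 126 FPKM (0.54 ± 0.17, adjusted p = 0.0202), and Nfatc1, a factor of the quiescent bulge, fell from 11.03 and 8.99 FPKM to 4.27 and 5.01 FPKM (-0.96 ± 0.14). Cd34, another bulge marker, fell by 0.46, and Lgr5 is part of this list as well.

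Genes of the fibrous dermis fell. Of 26 fibrillar collagen and elastic fibre genes tested 23 were lower and 0 higher, with a median log2 fold change of -0.93. They numbered 20 after median-of-ratios scaling and 14 with weights, against a background of 0.988% of genes. Col1a1 (ENSMUSG00000001506.10), on chromosome 11 from 94936224 to 94953042, fell from 624 and 767 FPKM to 257 and 221 FPKM (-1.53 ± 0.23, adjusted p = 1.33e-05). Sparc, a collagen-binding matrix protein, fell from 1096 and 1190 FPKM to 466 and 420 FPKM (-1.37 ± 0.12), and Eln, which encodes elastin, from 12.7 and 13.5 FPKM to 4.23 and 4.0 FPKM (-1.46 ± 0.17). For each of these genes both mid anagen libraries were below both early ones, by more than the spread within a stage. Col3a1 and Col11a1 had log2 fold changes of -1.51 and -1.63. Without a single library 18 to 22 genes of the list were lower.

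Markers of other cells in whole skin are read against the same 19.8% of genes lower, which the macrophage list did not exceed. Of 19 vessel genes 11 were lower (median -0.50), of 11 smooth muscle genes 7, of 12 Schwann cell and nerve genes 6, of 7 mast cell genes 6, of 10 T cell genes 6 and of 23 macrophage genes 4. No member of these lists was higher on the values as deposited. Mcpt4, a protease of connective tissue mast cells, fell from 28.3 and 27.6 FPKM to 9.36 and 7.12 FPKM (-1.66 ± 0.22). Tagln of smooth muscle fell by 1.28. With weights and scaling 3 nerve genes remained lower, 1 each of the smooth muscle, mast cell, T cell and macrophage genes, and 0 vessel genes. Without a single library between 7 and 8 vessel, 3 and 6 smooth muscle, 3 and 6 nerve, 1 and 5 mast cell, 1 and 7 T cell and 2 and 11 macrophage genes were lower. The 7 Langerhans and dendritic cell genes tested gave 0 calls in either direction as deposited. After median-of-ratios scaling 1 of them was higher, and 1 macrophage gene was higher and 1 lower.

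Of 24 sebaceous gland genes 15 were lower and 0 higher (median -0.55), but only 3 with weights and scaling, and 4 without the first early or 9 without the second mid anagen library. Elovl6, a fatty acid elongase, fell from 152 and 89.9 FPKM to 44.1 and 55.7 FPKM (-1.22 ± 0.14). Of 24 adipocyte genes 2 were higher and 1 lower, with a median of -0.04. The higher ones numbered 1 without the first early or first mid, 5 without the second early and 8 without the second mid anagen library. Fabp4, the fatty acid binding protein of fat cells, rose from 571 and 772 FPKM to 1125 and 1091 FPKM (0.74 ± 0.14, adjusted p = 0.000431), and Lipe, the hormone-sensitive lipase, from 15.98 and 20.1 FPKM to 34.6 and 27.1 FPKM (0.74 ± 0.17). Skeletal muscle genes depended on single libraries, as 14 of 34 were lower and 1 higher but 24 were lower without the first early, 2 without the second early and 4 without the second mid anagen library. The summed FPKM of that list was 993 and 2051 in early and 1389 and 895 in mid anagen, so the stages overlapped, and the part of the muscle layer taken with the skin in each library was not tested. Of 20 melanocyte and pigment genes 3 were lower and 0 higher as deposited, and 0 of either with weights and scaling.

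Of 4 neutrophil genes tested 2 were higher, S100a8 (37.1 and 41.3 FPKM to 152 and 124 FPKM, 1.79 ± 0.19) and S100a9 (1.51 ± 0.30), which keratinocytes can express as well. The defining neutrophil markers Ly6g and Ngp were listed at 0 or below 0.2 FPKM in all 4 libraries. Of 5 salivary gland genes tested Aqp5 was higher, at 0.660 and 1.12 FPKM in mid anagen. The defining mucin gene Muc5b of that list was listed at 0 in all 4 libraries. Of 4 cartilage genes tested 3 were lower, Acan, Sox5 and Sox6, with Acan at no more than 0.920 FPKM.

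Genes of the circadian clock went both ways. Of 17 tested 6 were higher and 4 lower, against 4.8% and 19.8% of all genes, so the lower ones were near that share. With weights and scaling 5 were higher and 2 lower, against 3.48% and 0.988% of all genes. Without the first early or first mid anagen library 1 and 2 were lower, and the fit of the 4 libraries alone had 1 higher and 0 lower. Dbp (ENSMUSG00000059824.10), on chromosome 7 from 45705088 to 45710203, an output gene of the clock that encodes a D-box binding factor, rose from 4.24 and 5.10 FPKM to 31.4 and 34.1 FPKM (2.58 ± 0.20, adjusted p = 5.26e-11). Its change was the largest of the list, and the stages were far apart. Per3 rose from 7.72 and 9.96 FPKM to 22.9 and 17.3 FPKM (1.10 ± 0.14) and Tef from 8.39 and 6.19 FPKM to 12.6 and 16.1 FPKM (0.89 ± 0.20), with Bhlhe41 at 1.14 and Ciart at 0.81. Lower were the activators of the loop, namely Arntl, which fell from 8.14 and 7.37 FPKM to 4.24 and 3.85 FPKM (-0.79 ± 0.13), Npas2 (-1.04) and Clock (-0.66), together with Rora (-0.46). The labels give no time of day for any library. The promoter of Per3 is shown with TTATGNAA, the D-box, in capitals.
Per3, chr4:151044616-151044915, minus strand: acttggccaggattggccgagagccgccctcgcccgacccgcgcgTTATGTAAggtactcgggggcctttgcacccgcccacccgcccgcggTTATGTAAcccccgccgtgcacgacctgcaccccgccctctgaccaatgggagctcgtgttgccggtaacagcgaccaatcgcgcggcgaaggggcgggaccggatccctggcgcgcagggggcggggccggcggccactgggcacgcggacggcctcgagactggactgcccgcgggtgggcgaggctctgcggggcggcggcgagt
The D-box stands here 205 and 158 bases before the start. It was found in 2 of 15 clock genes with a window and in 3.99% of all genes on either strand, and the E-box CACGTG in 5 of 15 and 8.09%.

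Immediate early genes, which cells switch on within minutes of a stimulus, included the largest decrease among genes of a list. Of 18 tested 6 were lower and 1 higher, and 5 and 0 with weights and scaling. Fos (ENSMUSG00000021250.13) fell from 134 and 187 FPKM to 22.8 and 23.2 FPKM (-2.73 ± 0.15, adjusted p = 4.56e-14). Dusp1 fell by 1.26, Fosb by 1.06, Zfp36 by 0.91 and Egr1 by 0.89, and Jund rose by 0.90 (adjusted p = 0.0256). Such genes also respond to the handling of tissue, which was not tested here.

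Outside the lists, the largest increases with separate stages and at least 5 FPKM were Crisp1 (1.80 and 1.75 FPKM to 61.3 and 49.9 FPKM, 4.34 ± 0.43), a secreted cysteine-rich protein, Car6, a secreted carbonic anhydrase (25.8 and 12.8 FPKM to 187 and 165 FPKM, 3.20 ± 0.22), and Atp12a, a proton and potassium pump (1.39 and 0.760 FPKM to 15.1 and 19.0 FPKM, 3.13 ± 0.13). All 3 also rose with weights and scaling. Krt18, a keratin of simple epithelia, rose by 2.93 and the desmosomal cadherin gene Dsc2, of the adhesion list, by 2.80, from 4.37 and 3.86 FPKM to 40.6 and 29.5 FPKM. In that list of 26 genes 1 was higher and 6 lower, near the 4.8% and 19.8% of all genes. The lower ones numbered 0 with weights and scaling, 2 without the first early or first mid and 13 without the second mid anagen library. The largest decrease outside the lists was that of Glipr1, from 12.6 and 5.92 FPKM to 0.490 and 0.360 FPKM (-2.77 ± 0.52), which did not pass with weights and scaling (adjusted p = 0.113). It was followed by Plac9a (-2.37), Plac9b (64.9 and 88.4 FPKM to 17.98 and 13.3 FPKM, -2.22 ± 0.30), Stfa3 (-2.0) and Serpinb12 (-1.95), of which Plac9b and Serpinb12 also passed with weights and scaling. Mt2, a metallothionein that buffers zinc, fell from 949 and 1044 FPKM to 352 and 372 FPKM (-1.46 ± 0.14). Mt3 of the same family fell by 1.67.

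The study had drawn up putative activators and inhibitors of the hair cycle from another dataset, by their time course. Of 226 activators tested in chin skin 2 were higher and 94 lower, with a median log2 fold change of -0.39, and of 119 inhibitors 14 were higher and 19 lower, with a median of -0.08. Relative to the other genes, after median-of-ratios scaling, 5 activators were higher and 49 lower, and 29 inhibitors higher and 4 lower. With weights as well the counts were 2 and 8, and 11 and 0. Over all genes 4.8% were higher and 19.8% lower as deposited, 9.51% and 6.45% after median-of-ratios scaling, and 3.48% and 0.988% with weights as well. The inhibitors lower as deposited thus did not exceed the share of all genes. Without the second early or second mid anagen library 53 and 60 activators were lower, and without the first early or first mid anagen library 8 and 7 inhibitors were higher. These lists were chosen by the study for their course over the cycle in that dataset, of dorsal skin, and not from these chin libraries. A change between stages here does not show that a member activates or inhibits the cycle.

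The same step was set beside that in dorsal skin (2 early and 3 mid anagen libraries) by a test of the difference. Over 18373 genes the change in chin was above the dorsal change for 1419 (7.72%) and below it for 1004 (5.46%). Most hair shaft genes had a smaller log2 fold change in chin. Of 56 keratin-associated protein genes 48 had a change below the dorsal one and 0 above it, with a median log2 fold change of 2.64 in chin and 4.31 in dorsal skin. Likewise 6 of 7 type I and 5 of 5 type II hair keratins and 11 of 15 inner root sheath genes rose less or fell more. Krt34 rose by 4.76 in dorsal and 2.68 in chin skin (difference -2.09, adjusted p = 3.5e-10). Krtap19-2 started from a higher level in chin, at 164 FPKM in chin early anagen against 0.780 FPKM in dorsal early anagen on average, and stood at 4450 and 777 FPKM in mid anagen.

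**Figure D5:**
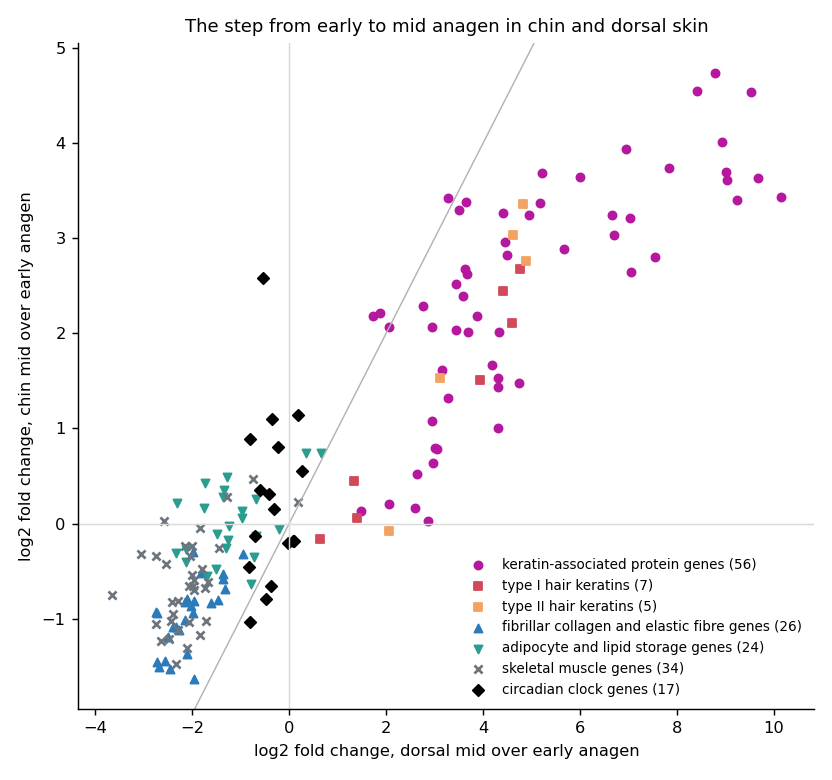
Log2 fold change of mid over early anagen in chin (vertical axis) against dorsal skin (horizontal axis), on log2(FPKM + 1), for the members of 7 lists that were tested in both. Symbols are genes and the diagonal marks equal change. Hair shaft genes lie below the diagonal (median of keratin-associated protein genes 2.64 in chin, 4.31 in dorsal skin), collagen, muscle and adipocyte genes mostly above it, and Dbp lies alone at 2.58 in chin and -0.54 in dorsal skin.

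Genes of the dermis fell less in chin. Of 26 collagen and elastic fibre genes 24 fell less in chin and 0 more, with medians of -0.93 in chin and -2.11 in dorsal skin. For 29 of 38 skeletal muscle genes and 17 of 24 adipocyte genes the chin change was above the dorsal change, and for 0 below it. Their medians were -0.66 and -0.04 in chin and -2.03 and -1.29 in dorsal skin. Of 30 genes of the G2 and M phases 0 differed. Of 30 S phase genes 4 had a chin change above the dorsal one and 0 below it, against 7.72% and 5.46% of all genes. The medians of these lists in dorsal skin were -0.74 and -0.68. The clock list differed for 6 of 18 genes, each with a chin change above the dorsal change. Dbp was at 8.12 to 9.01 FPKM in dorsal early and 4.79 to 6.25 FPKM in dorsal mid anagen, and the difference of the changes was 3.12 (adjusted p = 1.88e-09). Per3 and Tef differed by 1.46 and 1.70. Fos fell more in chin, by 0.98 on the log2 scale (adjusted p = 0.00173).

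Beside ventral skin, the change in chin was above the ventral change for 2069 of 18255 genes (11.3%) and below it for 2977 (16.3%). This comparison rests on ventral early anagen libraries with few dividing cells by their RNA, in which Mki67 was 1.39 to 1.42 FPKM and Shh 0.14 to 0.27 FPKM, whereas ventral competent telogen had Mki67 at 11.1 to 12.5 FPKM. There the median log2 fold change of the G2 and M phase genes was 1.81, and 28 of 30 rose less or fell more in chin, as did 22 of 26 collagen genes. Of the keratin-associated protein genes 15 rose more and 20 less in chin than in ventral skin.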

How the data were processed

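The deposited values are FPKM per gene and library. Per the labels and the study's methods, paired-end reads of SMART-seq2 libraries were aligned and quantified by the authors with RSEM 1.2.25 on mm10 with GENCODE annotation, and the values were corrected for batches that are not named. FPKM keeps no read counts, so depth was estimated from the smallest steps of the values. Values were taken as log2(FPKM + 1). Genes that reached 0.5 FPKM in 2 or more of the libraries compared were tested with limma 3.58.1 in R 4.3.3, with 43 libraries as 18 groups, a mean trend, two-sided p-values and Benjamini-Hochberg adjustment at 0.05. Nothing states that replicates came from separate mice, so p-values measure the spread between these libraries, which may be technical. On simulated data with 200 changed genes, 82% were recovered at a log2 change of 1 and 99% at 2, among 15793 and 15801 genes, with 4.09% and 1.98% false calls. For the difference from dorsal skin 63% and 94% were recovered. All simulated libraries shared 1 spread per gene and had no shift of the median. The chin mid anagen libraries scattered more than most other groups, so these rates need not hold for this comparison.

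Alternatives were another pseudocount, other filters, 3 scalings, array weights, other sets of libraries and a replicate block. Genes are named where they were among the largest changes of a list, of all genes or of the differences between domains, or belong to the signalling lists. The comparison, the gene lists and the groups compared were chosen with earlier results of these data known. Gene positions and promoters are those of GRCm38. Python 3.11.15, numpy 2.4.6, pandas 2.3.3 and matplotlib 3.10.9 were used for tables and plots. Values of 2 genes are not reported here.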

Additional observations from a re-analysis of the deposited data

Results flagged for a closer look

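The step from early to mid anagen differed between chin and dorsal skin for 1419 genes whose change was above and 1004 genes whose change was below the dorsal change, and between chin and ventral skin for 2069 genes above and 2977 below, each by a test of the difference itself in limma. Values below are the chin change minus the other change on the log2 scale.

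Furthest above dorsal skin were Serpinb6e (4.86), Scd3 (3.12), Dbp (3.12), Dgat2l6 (2.95), Actc1 (2.91) and Ces4a (2.84). In chin Serpinb6e, Scd3 and Dgat2l6 had log2 fold changes of 0.08, -0.07 and 0.05, so these differences come from the dorsal libraries. Furthest below it were the keratin-associated protein genes Krtap16-3 (-6.73), Krtap19-5 (-6.06), Krtap15 (-5.84), Krtap19-9b (-5.42), Krtap14 (-5.32) and Krtap19-1 (-5.00).

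Among other genes of the lists, the clock genes Per3 and Tef differed from dorsal skin by 1.46 and 1.70, the collagen genes Col1a2 and Col6a1 by 1.11 and 1.78, and the fat cell genes Cidec and Lpl by 2.15 and 1.85. Krt34 differed by -2.09, Krt82 by -2.14, Tchhl1 of the inner root sheath by -3.66 and Fos by -0.98.

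Furthest above ventral skin were Krtap20-2 (8.34), Krtap6-3 (6.15), Krt16 (5.72), Wfdc3 (5.08), Krt84 (4.78) and Dbp (4.10). In ventral skin their log2 fold changes were -4.92, -2.21, -4.01, -5.53, -1.42 and -1.52, so falls there are part of each difference. Furthest below it were Mlana (-4.76), a melanocyte gene, Sptssb (-4.33), Hist1h2ae (-4.30), Mest (-4.09), Rps12 (-4.02) and Msx1 (-3.99). None of these was past the threshold in chin, where Mlana, Sptssb and Msx1 had log2 fold changes of 0.10, 0.07 and -0.70. In ventral skin these 3 rose by 4.86, 4.40 and 3.28. Rps12 was at 184 and 7.5 FPKM in the mid anagen libraries of the chin, so that 1 library decides its value. The ventral early anagen libraries had little RNA of dividing cells, and the part of this in these differences was not tested.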

How the results depend on the processing

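For genes higher and lower in chin mid anagen (801 and 3307 as deposited, 19.5% of calls higher), the counts were 1569 and 1064 after median-of-ratios scaling (59.6% higher), 1389 and 1345 after quantile normalization (50.8%), 535 and 5768 as TPM (8.5%), 359 and 612 with array weights (37.0%), 574 and 163 with median of ratios and array weights (77.9%), and 109 and 57 in a fit of the 4 libraries alone (65.7%). Leaving out 1 library gave 531 to 978 higher and 1712 to 2762 lower. Genes with a change above and below the dorsal change (1419 and 1004) numbered 332 and 331 with only the libraries compared, 668 and 494 with weights, 533 and 581 with both, and 841 to 2056 and 626 to 1402 without 1 library. For ventral skin (2069 and 2977) they were 894 and 1339, 1286 and 2053, 1470 and 1752, and 1270 to 2481 and 1766 to 3629. The share above the dorsal change was 58.6% as deposited, 40.9% as TPM and 49.9% after median of ratios. Of 163 named genes 151 had a call as deposited. Of these 114 lost it with the 4 libraries alone, 47 with median of ratios and weights, and 12 with median of ratios. Krt77 was reversed without the first mid anagen library (0.01, adjusted p = 0.985) and at -1.61 without the second. Other pseudocounts, filters and trends left the counts for chin within 1.5 times, as did the total of genes outside the hair shaft. The cause of these shifts was not tested.

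Replicate numbers are shared between groups. A replicate block gave 801 higher and 3260 lower genes in chin, 1383 and 969 against dorsal and 2054 and 2909 against ventral skin. Deviations of the first early and first mid anagen library from their group means correlated at -0.265. With 2 libraries per group, the sign turns when the numbers of 1 group are swapped. This value therefore cannot decide whether the numbers pair the samples. Pairing the 4 libraries with crossed numbers gave 891 and 3677, against 793 and 3258 as numbered, an alternative added after seeing the data, as were weights with median of ratios and scaling outside the hair shaft.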

Other observations

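Genes of retinoid and hormone signalling lie outside the groups above. Of 16 tested 2 were higher and 4 lower, against 4.8% and 19.8% of all genes, so the lower ones were near that share. After median-of-ratios scaling 4 were higher and 1 lower, against 9.51% and 6.45%. Crabp2, which carries retinoic acid to its receptor, rose by 0.75 on the log2 scale. It passed also with median of ratios and array weights. Cyp26b1, which degrades retinoic acid, fell by 0.62, and the receptor genes Rxra and Rara by 0.55 and 0.51, as did Prlr, the prolactin receptor gene, by 0.56, none of which passed under that setting. Of 30 nuclear genes of the respiratory chain 1 was higher, Uqcrfs1 (0.31), and 6 lower, with Sdhc and Sdhd, subunits of succinate dehydrogenase, at -0.87 and -0.71. The 6 of 30 are near the 19.8% of all genes lower, and the direction turned with scaling, to 4 higher and 2 lower with median of ratios and 2 higher and 0 lower with weights as well. Of 6 red blood cell genes 2 were lower, Hbb-bs (-1.05) and Hbb-bt (-0.95), and 1 higher, Slc4a1 (0.39). Of 5 muscle satellite and regulatory genes Myf6 was lower (-0.66).

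Dbp is given over the other stages because its level was not ordered by stage label. In chin it was at 4.73 to 5.56 FPKM in competent telogen, 30.8 to 32.9 FPKM in late anagen, 5.65 to 8.13 FPKM in catagen and 56.6 to 73.7 FPKM in refractory telogen. In dorsal skin the libraries of competent telogen stood apart with 33.1 to 36.7 FPKM, and in ventral skin those of early anagen with 24.8 to 29.0 FPKM. Those dorsal libraries held 13.1% and 13.0% of the summed FPKM in keratin-associated protein genes, and Krt71 at 8292 and 8240 FPKM. In chin late anagen these were 13.2% and 13.1%, and 7981 and 8335 FPKM. The ventral ones had Mki67 at 1.39 to 1.42 FPKM, against 1.61 to 2.16 FPKM in ventral refractory telogen. Whether these labels match the stage of the tissue was not tested. Sampling time is not in the labels, and its part in the levels of Dbp was not tested.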
